A study of Homo sapiens with 2 samples.

Results

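The genes of nucleotide synthesis, salvage and uptake were compared between HT-29 cells given MYC siRNA and HT-29 cells given control siRNA. The members were 37 named genes, and a gene was measured where a probe set named it and no other gene. This held for 35 of the 37, among 8917 genes above a signal of 50 in at least 1 array. No probe set was listed for ADSS, the adenylosuccinate synthetase now named ADSS2, and both probe sets of UCK2 also named another gene, so neither gene was reported. HT-29 is a human colorectal adenocarcinoma line. Cells received 20 nM of a pool of siRNAs against MYC for 24 h, or of a non-targeting pool as the control, and were used after 48 h. The treatment field of the control array reads None. Both arrays come from the same line, and the agents given to them differed in the siRNA pool. Each condition has a single array, so no difference could be checked in replicates, no test was possible, and no p-value is given. The knockdown was a transient one. The study made the knockdown to examine what part MYC has in the expression changes that its anticancer compounds bring about.

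Cells build purine and pyrimidine nucleotides de novo from small precursors on phosphoribosyl pyrophosphate (PRPP), or recover bases and nucleosides by salvage. Ribonucleotide reductase then turns ribonucleotides into deoxynucleotides for DNA, and equilibrative carriers bring nucleosides in from outside. MYC is a transcription factor that binds the E-box CACGTG, and enzymes of nucleotide synthesis are textbook targets of it. Several of these proteins are also points of action of drugs used in the study: methotrexate enters by the folate carrier SLC19A1, gemcitabine enters by SLC29A1 and is activated by DCK, and 6-mercaptopurine is activated by HPRT1.

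MYC itself had a signal of 1640 with MYC siRNA, against 1963 with control siRNA. This was 1.20-fold lower (log2 ratio -0.26, 1 probe set), and 1929 of the 8917 genes, or 21.6%, had a ratio at least as low. These are RNA values. The study examined the knockdown by immunoblot of MYC protein, and reported lower expression of curated MYC target genes with MYC siRNA. Signals were MAS5 values, a brightness on a linear scale that was set to the same mean level in each array, and values under 50 were set to 50 before a ratio was taken. Where a gene had several probe sets, their log2 ratios varied with an SD of 0.23 (4040 genes), a spread within the 2 arrays that leaves out variation between cultures. Of 10 colon epithelium markers 8 were above 50, and all 10 had a summed signal of 38966 with MYC siRNA and 33420 with control siRNA. Of 6 fibroblast markers 1 was above 50 (COL1A1, chosen for naming after its value was seen), at 78.9 with MYC siRNA and 94.7 with control siRNA, and of 5 immune and 4 endothelial markers none was above 50. In bulk RNA, fewer cells that express a gene and less RNA per cell cannot be told apart.

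Of the 35 measured members, 26 were lower with MYC siRNA and 9 were higher, with a median log2 ratio of -0.36. Over all 8917 genes, 46.5% were lower and the median was 0.03. A 1.5-fold lower signal was reached by 9 members, or 25.7%, against 5.72% of all genes, and 1.5-fold higher by 1 member, against 10.4% of all genes. A gene at or past 2-fold is called a DOWN DEG or an UP DEG here, after the study's rule. The brightest probe sets of 3 members, SLC29A1, AK4 and DHODH, were DOWN DEGs, against 0.695% of all genes, and no member was an UP DEG, against 2.73%. Counted by probe set, 4 of 64 above 50 were DOWN DEGs and 0 were UP DEGs, against 0.607% and 2.19% of all 17127 probe sets. The added one was a dimmer probe set of GART. The 9 members past 1.5-fold in the lower direction were 3 purine genes, 1 pyrimidine gene, 2 nucleotide kinases and 3 carriers. None was among the 5 deoxynucleotide and 6 salvage genes, which for so few genes is close to the 5.72% of all genes.

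**Figure D1:**
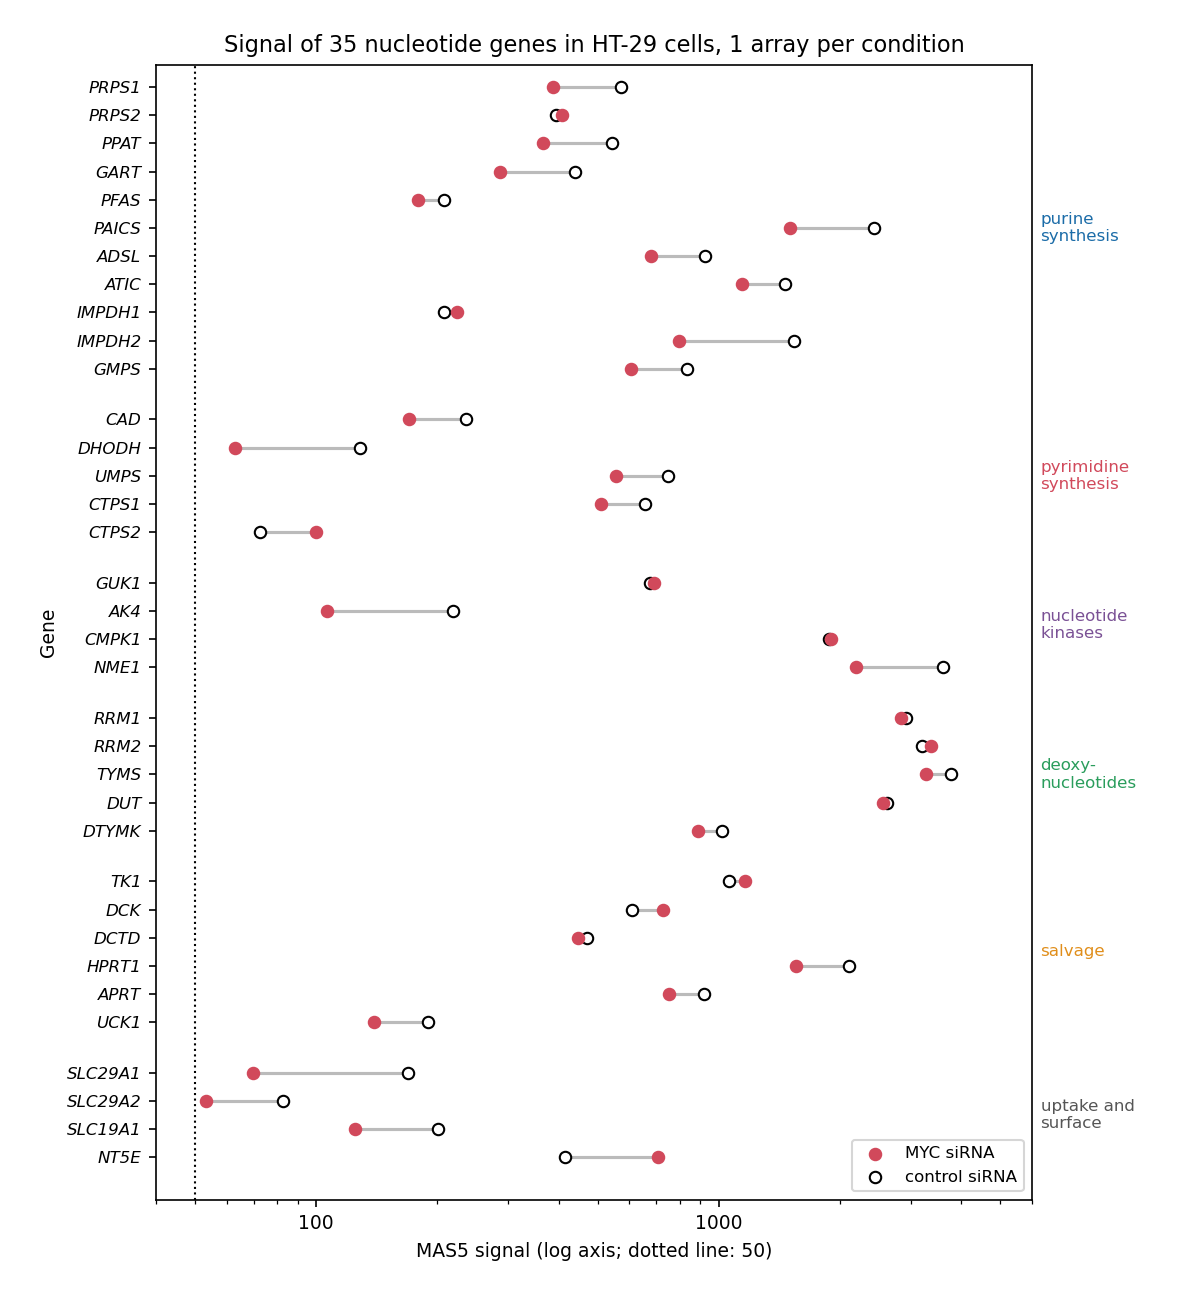
MAS5 signal (x axis, log scale) of the brightest probe set of each of 35 genes (y axis, by branch), with red points for MYC siRNA, open points for control siRNA and a grey line joining them. The dotted line marks a signal of 50. Red points lie left of open points for 26 genes, and the 5 deoxynucleotide genes have their points close together.

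Inosine monophosphate (IMP) is the common precursor of adenine and guanine nucleotides, and the genes of the steps to it had lower RNA signals. All 6 were lower, against 46.5% of all genes, with log2 ratios between -0.70 and -0.22 and a median of -0.51. PPAT, the amidotransferase of the committed step, had a signal of 365 with MYC siRNA and 543 with control siRNA. That was 1.49-fold lower (log2 ratio -0.57), and the other probe set of PPAT above 50 was 1.70-fold lower. PAICS, a bifunctional enzyme of the middle of the pathway, had a signal of 1503 with MYC siRNA and 2436 with control siRNA, which was 1.62-fold lower (-0.70). Both PAICS probe sets above 50 lay close together, with the other at -0.77, and 3.21% of all genes had a ratio as low as that of the brightest.

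GART, which carries several activities of this pathway in the same protein, had a signal of 286 with MYC siRNA and 439 with control siRNA, 1.54-fold lower (log2 ratio -0.62). Its 4 probe sets above 50 were all lower but spread widely, between -1.56 and -0.31. The lowest of them had a signal of 89.5 with MYC siRNA and 264 with control siRNA, 2.95-fold lower. ADSL, adenylosuccinate lyase, works both here and in the making of AMP. Its signal was 679 with MYC siRNA and 925 with control siRNA, 1.36-fold lower, and its second probe set was 1.39-fold lower. ATIC, which completes IMP, had 1139 with MYC siRNA and 1458 with control siRNA and was 1.28-fold lower. PFAS, the amidotransferase after GART's early steps, was the nearest to level, at 179 with MYC siRNA and 208 with control siRNA (1.17-fold lower). Its log2 ratio of -0.22 was within the SD between probe sets. Ratios at least as low as those of ADSL, ATIC and PFAS were found in 10.2%, 14.9% and 24.7% of all genes.

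Before and after IMP, the gene pairs that encode related enzymes had unlike ratios. PRPP synthetases supply the ribose phosphate for the whole pathway. PRPS1 had a signal of 387 with MYC siRNA and 573 with control siRNA, 1.48-fold lower (log2 ratio -0.57), and its second probe set was 1.62-fold lower. PRPS2 had 408 with MYC siRNA and 394 with control siRNA (log2 ratio 0.05), so the 2 genes differed by -0.62. IMP dehydrogenase carries out the rate-limiting step toward GMP. IMPDH2 had the lowest ratio of the purine genes, with a signal of 797 with MYC siRNA and 1541 with control siRNA (1.93-fold lower, log2 ratio -0.95), and 76 of the 8917 genes were as low. IMPDH1 had 223 with MYC siRNA and 207 with control siRNA (log2 ratio 0.11), a difference of -1.06 between the related genes. Each IMPDH gene has 1 probe set here.

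GMPS, GMP synthetase, follows IMP dehydrogenase. Its brightest probe set had a signal of 607 with MYC siRNA and 834 with control siRNA, 1.37-fold lower (log2 ratio -0.46). The 2 other GMPS probe sets above 50 were dim, with log2 ratios of -0.01 and 0.05, so its lower value rests on 1 probe set. The purine genes together, PRPP synthetases included, had a median log2 ratio of -0.46, with 9 of 11 lower, 3 of them by at least 1.5-fold (GART, PAICS and IMPDH2). Over all genes, 46.5% were lower, and 5.72% were lower by at least 1.5-fold.

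**Figure D2:**
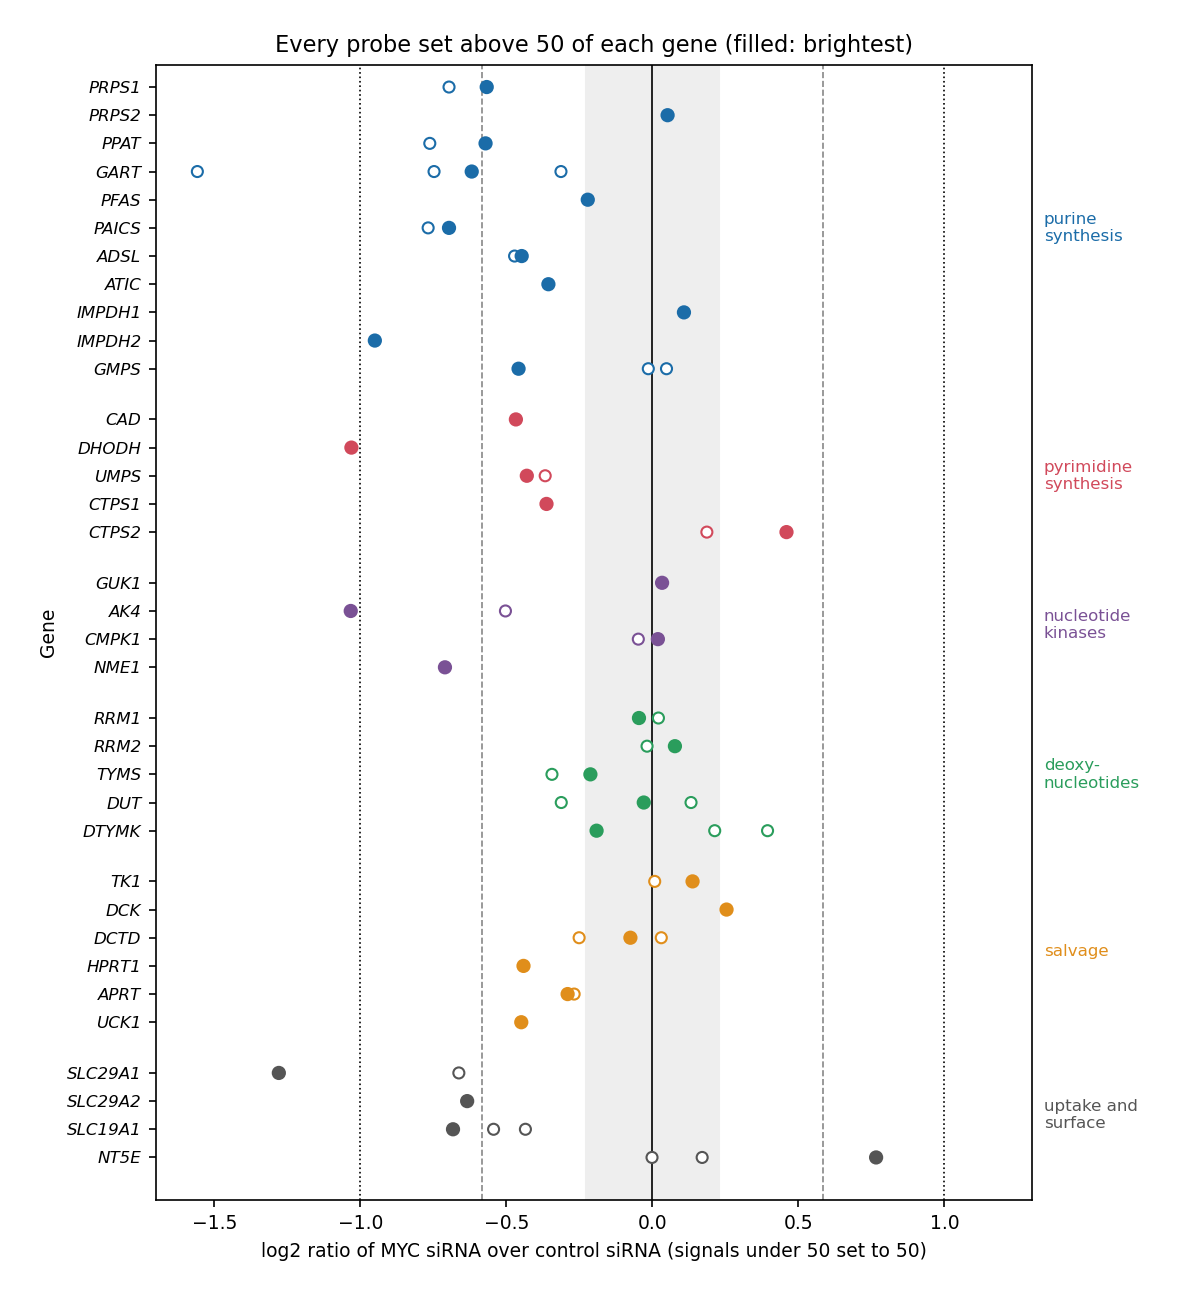
MYC siRNA over control siRNA as log2 ratio (x axis) for all 64 probe sets above 50 of the 35 genes (y axis, by branch), with the brightest of each gene filled and the others open. The grey band is the SD between probe sets of a gene (0.23) either side of 0, dashed lines mark 1.5-fold and dotted lines 2-fold. All filled deoxynucleotide points are inside the band, and SLC29A1, AK4 and DHODH are past 2-fold.

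Pyrimidine synthesis showed the same direction at its backbone. The 3 genes of the steps to uridine monophosphate were all lower, against 46.5% of all genes, with a median log2 ratio of -0.47. CAD, which joins the opening activities in a single polypeptide, had a signal of 170 with MYC siRNA and 236 with control siRNA, 1.38-fold lower (-0.47). DHODH, the dihydroorotate dehydrogenase of the inner mitochondrial membrane, had 63.0 with MYC siRNA and 129 with control siRNA, 2.04-fold lower (-1.03), and its 2 other probe sets did not exceed 50. This signal is not far above 50, and with signals under 100 set to 100 the log2 ratio of DHODH was -0.36. UMPS, which closes the pathway, had 556 with MYC siRNA and 750 with control siRNA and was 1.35-fold lower. Its second probe set was 1.29-fold lower.

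CTP synthetases, which aminate UTP, had opposite directions. CTPS1 had a signal of 511 with MYC siRNA and 657 with control siRNA, 1.29-fold lower (log2 ratio -0.36). CTPS2 had 99.9 with MYC siRNA and 72.7 with control siRNA, 1.37-fold higher (0.46), with a second probe set 1.14-fold higher. CTPS1 minus CTPS2 was -0.82 on the log2 scale. The 5 pyrimidine genes had a median of -0.43.

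Among the kinases that raise monophosphates and diphosphates, lower and level genes stood side by side. NME1, a nucleoside diphosphate kinase that feeds all triphosphate pools, had a signal of 2199 with MYC siRNA and 3598 with control siRNA, 1.64-fold lower (log2 ratio -0.71, 1 probe set). AK4, a mitochondrial adenylate kinase, had 107 with MYC siRNA and 218 with control siRNA in its brightest probe set, 2.05-fold lower (-1.03). The second AK4 probe set was 1.42-fold lower, so the call past 2-fold rests on 1 of the 2. CMPK1, the UMP and CMP kinase, had 1905 with MYC siRNA and 1881 with control siRNA (log2 ratio 0.02), and GUK1, guanylate kinase, had 692 with MYC siRNA and 676 with control siRNA (0.03). The direction of CMPK1 and of GUK1 turned in some scalings, and both ratios were within the SD between probe sets.

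Deoxynucleotide synthesis was nearly level. All 5 genes had log2 ratios between -0.21 and 0.08, with a median of -0.05. All were within the SD between probe sets over all signal levels (0.23), as were 44.4% of all genes. For bright genes alone, with a mean signal of 368 or more, this SD was 0.18. TYMS (-0.21) and DTYMK (-0.19) lay outside the SD of bright genes. None of the 5 genes was 1.5-fold lower or higher, against 5.72% and 10.4% of all genes. With only 5 genes, none past 1.5-fold is close to those shares. RRM2, the regulated small subunit of ribonucleotide reductase, had a signal of 3374 with MYC siRNA and 3198 with control siRNA (0.08). RRM1, the large subunit, had 2830 with MYC siRNA and 2922 with control siRNA (-0.05), and for both subunits the 2 probe sets lay on opposite sides of 0. TYMS, thymidylate synthase and the target of fluoropyrimidines, had 3265 with MYC siRNA and 3783 with control siRNA (-0.21), and its second probe set was at -0.34. TYMS was the only gene of this branch with every probe set above 50 on the same side.

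DUT, which breaks down dUTP, had a signal of 2558 with MYC siRNA and 2611 with control siRNA (log2 ratio -0.03), with other probe sets at 0.13 and -0.31. DTYMK, thymidylate kinase, had 890 with MYC siRNA and 1016 with control siRNA (-0.19), while its other probe sets were at 0.21 and 0.39. No direction can be given for RRM1, RRM2, DUT or DTYMK from these probe sets. Genes of proliferating cells were measured for comparison, since deoxynucleotide enzymes are made mostly in S phase. Of 14 proliferation markers, 13 were lower and 1, CDK1 (log2 ratio 0.29), was higher, against 46.5% of all genes lower. None was past 1.5-fold, against 5.72% of all genes lower and 10.4% higher. The median log2 ratio of the markers was -0.26. This median was nearer to 0 after loess, at -0.14, and without probe sets that may bind several transcripts, at -0.10. PCNA, the sliding clamp of replication, had 3164 with MYC siRNA and 3799 with control siRNA (-0.26), and MKI67 had 978 with MYC siRNA and 1189 with control siRNA (-0.28), although its probe sets went both ways. The study reported less growth of HT-29 cells after MYC knockdown by siRNA. The part of proliferation in the members' values was not tested.

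The 3 measured members of base and ribonucleoside salvage had lower signals than in the control, as did 46.5% of all genes. Salvage genes outside the members, of all kinds, went both ways, with 3 of 7 lower and 4 higher. HPRT1, which recovers hypoxanthine and guanine, had a signal of 1555 with MYC siRNA and 2112 with control siRNA, 1.36-fold lower (log2 ratio -0.44, 1 probe set above 50). APRT, which recovers adenine, had 751 with MYC siRNA and 919 with control siRNA, 1.22-fold lower (-0.29), and its second probe set lay at -0.27. UCK1, a uridine-cytidine kinase, had 139 with MYC siRNA and 190 with control siRNA, 1.37-fold lower (-0.45). These 3 genes were lower in each probe set above 50, but HPRT1 and UCK1 have only 1 such probe set each. With the mean log2 ratio over all probe sets, both HPRT1 and UCK1 were at -0.22.

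The kinases of deoxynucleoside salvage, DCK and TK1, were level or slightly higher. DCK, deoxycytidine kinase, had a signal of 728 with MYC siRNA and 611 with control siRNA, 1.19-fold higher (log2 ratio 0.25, 1 probe set). TK1, the cytosolic thymidine kinase of S phase, had 1163 with MYC siRNA and 1058 with control siRNA (0.14), and a second probe set at 0.01. DCTD, dCMP deaminase, had 447 with MYC siRNA and 471 with control siRNA (-0.08), with its 3 probe sets on both sides of 0. Its log2 ratio lay between -0.11 and -0.05 under the alternative ways of processing. Over the 6 measured salvage genes the median was -0.18. None was past 1.5-fold, which for 6 genes is close to the shares of all genes, 5.72% lower and 10.4% higher. The contrast of DCK and TK1 with the members of base and ribonucleoside salvage was seen in the values. No test of it was possible.

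The 3 carriers at the cell surface among the members all had lower signals, against 46.5% of all genes, at a median log2 ratio of -0.68. With NT5E added the median was -0.66, which was -0.18 with the mean log2 ratio over all probe sets and -0.43 without probe sets that may bind several transcripts. SLC29A1, the equilibrative nucleoside transporter ENT1, had a signal of 69.6 with MYC siRNA and 169 with control siRNA, 2.43-fold lower (log2 ratio -1.28). Only 10 of the 8917 genes, SLC29A1 included, had a ratio as low. The second SLC29A1 probe set had 57.6 with MYC siRNA and 91.2 with control siRNA, 1.58-fold lower (-0.66). With signals under 100 set to 100 the log2 ratio of SLC29A1 was -0.76, since its signals are dim.

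SLC29A2, the related carrier ENT2, had 53.2 with MYC siRNA and 82.5 with control siRNA, 1.55-fold lower (log2 ratio -0.63), and its 4 other probe sets were at or under 50 in both arrays. SLC19A1, the reduced folate carrier, had 125 with MYC siRNA and 200.4 with control siRNA, 1.61-fold lower (-0.68). Its other probe sets above 50 were 1.46-fold and, with 1 array under 50, at least 1.35-fold lower, so all 3 were on the same side. With the mean over all probe sets SLC29A1 alone of these carriers was past 1.5-fold, with SLC19A1 at -0.24 and SLC29A2 at -0.13. SLC29A3, a relative of both nucleoside carriers that works in inner membranes and is not a member, was 1.52-fold higher, at 93.8 with MYC siRNA and 61.7 with control siRNA. It is named here after its value was seen.

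NT5E, the ectoenzyme CD73 that turns extracellular AMP into adenosine, went the other way. Its brightest probe set had a signal of 708 with MYC siRNA and 416 with control siRNA, 1.70-fold higher (log2 ratio 0.77), and 5.71% of all genes were as high. Of the other NT5E probe sets above 50, 1 had a log2 ratio of 0.17 and 1 a signal of 212 in both arrays, so the higher value rests on 1 of 3 probe sets. NT5E was the 1 member past 1.5-fold in the higher direction.

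The E-box CACGTG was looked for in RefSeq promoter sequences, which run from 250 bases before to 50 after an annotated gene start (GRCh38.p14). The motif reads the same on both strands. A promoter was found for 32 of the 35 measured members, some with several starts, and none for ADSL, IMPDH2 and SLC29A2. CACGTG lay in a promoter of 9 of the 32 members, or 28.1%, and in 13.6% of the 7482 genes above 50 with a promoter. By window, 10 of 53 member promoters held it, or 18.9%, against 7.26% of all 35116 promoters in the table. The 9 members with a match had a median log2 ratio of -0.70 and 8 of them were lower, while the 23 without a match had a median of -0.19 and 15 were lower. Over all genes above 50 the medians were -0.03 for the 1019 with a match, of which 53.0% were lower, and 0.04 for the 6463 without, of which 45.6% were lower. PPAT and PAICS hold the same match and are counted separately, and IMPDH2, at -0.95, is in neither group. A match of letters is a description of the sequence, binding was not measured, and the members with several starts had more letters to match. Bases outside these promoter sequences were not searched, so a gene without a match may hold the motif further away.

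The matches are shown because they include the members with some of the lowest ratios, SLC29A1, AK4, DHODH, NME1 and PAICS, and also DCK, which was not lower. Each stretch is written along the gene's strand with CACGTG in capitals and up to 12 bases either side, and ends early where the promoter sequence ends.
SLC29A1 (chr6:44219365-44219387, plus strand): cagtgCACGTGctcccaggtctc
AK4, first match (chr1:65147447-65147476, plus strand): ggtcgcagggagCACGTGggccaggcaggc
AK4, second match (chr1:65147858-65147887, plus strand): ccacacgttgccCACGTGcgaggaccgggc
DHODH (chr16:72008573-72008602, plus strand): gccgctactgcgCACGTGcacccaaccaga
NME1 (chr17:51153581-51153608, plus strand): agtgctgcgaacCACGTGggtcccgggc
PPAT (chr4:56435780-56435809, minus strand): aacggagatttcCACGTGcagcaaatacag
PAICS (chr4:56435780-56435801, plus strand): ctgtatttgctgCACGTGgaaa
SLC19A1 (chr21:45541797-45541826, minus strand): ttcgcgcccaggCACGTGttgcttcgggac
ATIC, first match (chr2:215312001-215312030, plus strand): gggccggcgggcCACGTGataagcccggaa
ATIC, second match (chr2:215312076-215312105, plus strand): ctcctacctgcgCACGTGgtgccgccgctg
DCK (chr4:70993521-70993550, plus strand): cgccccggccttCACGTGacctggcgtgcg

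PPAT and PAICS are transcribed away from each other on chromosome 4, and the match is the same one for both genes, at chr4:56435792-56435797. It lies 182 bases before the start of PPAT and 40 bases after the PAICS start in whose promoter it was found. The log2 ratios of the pair were alike, -0.57 for PPAT and -0.70 for PAICS. In SLC29A1 the match is 245 bases before the start, in DHODH 159 bases before, in DCK 116 bases before, and in NME1 34 bases after. ATIC holds 1 match 46 bases before and 1 match 29 bases after its start. The SLC19A1 match belongs to 1 of several annotated starts, and which start HT-29 cells use was not measured.

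The ratio of all genes depended on their signal, so the members were also read within signal groups. In 5 groups of 1783 or 1784 genes from dim to bright, the median log2 ratio of all genes was 0.15, 0.10, 0.04, -0.01 and -0.10. The members in them, 3, 4, 3, 11 and 14 genes, had medians of -0.63, -0.86, -0.22, -0.36 and -0.25. In all, 24 of the 35 were below the median of their own group and 11 were above it. After loess of the log2 ratio on signal the medians were -0.41 for the purine genes, -0.39 for the pyrimidine genes, 0.09 for the deoxynucleotide genes, and -0.72 for uptake and surface. The deoxynucleotide median was thus on the other side of 0 with this scaling, and also with quantile normalization, at 0.10.

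**Figure D3:**
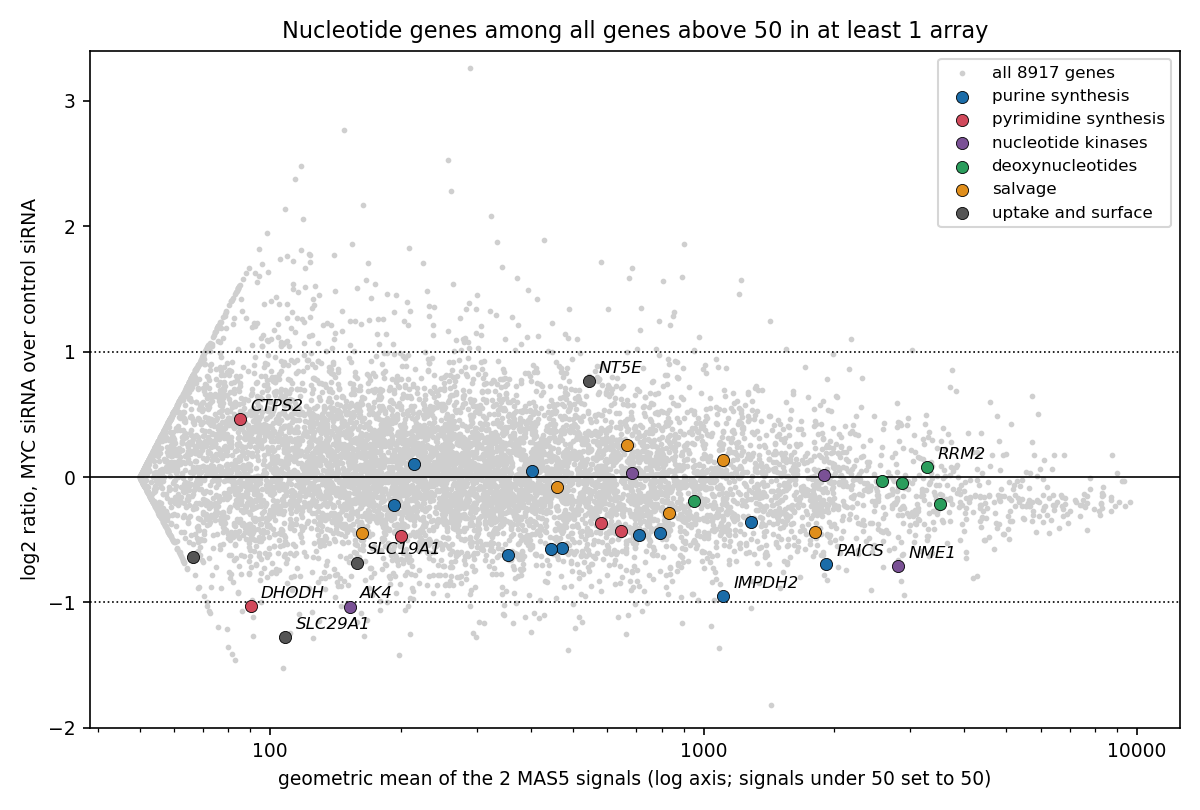
MYC siRNA over control siRNA as log2 ratio (y axis) against the geometric mean of both MAS5 signals (x axis, log scale, signals under 50 set to 50) for 8917 genes (grey) and the 35 members, coloured by branch. The solid line is no difference and the dotted lines are 2-fold. The deoxynucleotide genes lie near 0 at the bright end beside NME1 and PAICS at -0.71 and -0.70, and SLC29A1, AK4 and DHODH lie at or past the lower dotted line at the dim end.

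Of 62 other genes of degradation, nucleotidases, further kinases, salvage and carriers, 34 were above 50, 21 did not exceed 50 in either array and 7 had no probe set of their own. Among the 34, 13 were lower and 21 higher, with a median log2 ratio of 0.16, and 1 was 1.5-fold lower (2.94%, against 5.72% of all genes) and 5 were 1.5-fold higher (14.7%, against 10.4% of all genes). The median was 0.05 with the mean log2 ratio over all probe sets, 0.06 over those above 50 and 0.08 without probe sets that may bind several transcripts, against 0.02, 0.03 and 0.05 for all genes. The lower one was DCTPP1, which removes dCTP and its modified forms from the pool, with a signal of 714 with MYC siRNA and 1110 with control siRNA (1.56-fold lower). ADK, adenosine kinase, was 1.37-fold lower and UCKL1, a relative of the uridine-cytidine kinases, 1.32-fold lower, with second probe sets at -0.21 and -0.07. SAMHD1, which breaks down deoxynucleoside triphosphates, was 1.21-fold lower.

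Among the higher genes that reached 100 in either array, the 4 with the largest ratios were TK2, ENTPD4, NT5C2 and ENTPD5. ENTPD4, a nucleoside diphosphatase of internal membranes, had a signal of 377 with MYC siRNA and 198 with control siRNA (1.91-fold higher). NT5C2, a cytosolic nucleotidase for IMP and GMP, had 624 with MYC siRNA and 445 with control siRNA (log2 ratio 0.49), and ENTPD5 was 1.31-fold higher. TK2, the mitochondrial thymidine kinase, had 114 with MYC siRNA and 29.0 with control siRNA, at least 2.29-fold higher with the control under 50. The subgroups went both ways, and 53.5% of all genes were higher. Of the 7 nucleotidases above 50, 5 were higher, with a median of 0.24, and of the 6 further kinases 5 were higher, with a median of 0.18. Of the 7 degradation genes 4 were lower, with a median of -0.14, and of the 3 genes that clean the pool 2 were lower, with a median of -0.25. The 7 further salvage genes had a median of 0.01, with 4 higher, and the 3 further synthesis genes a median of 0.08, with 2 higher.

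**Figure D4:**
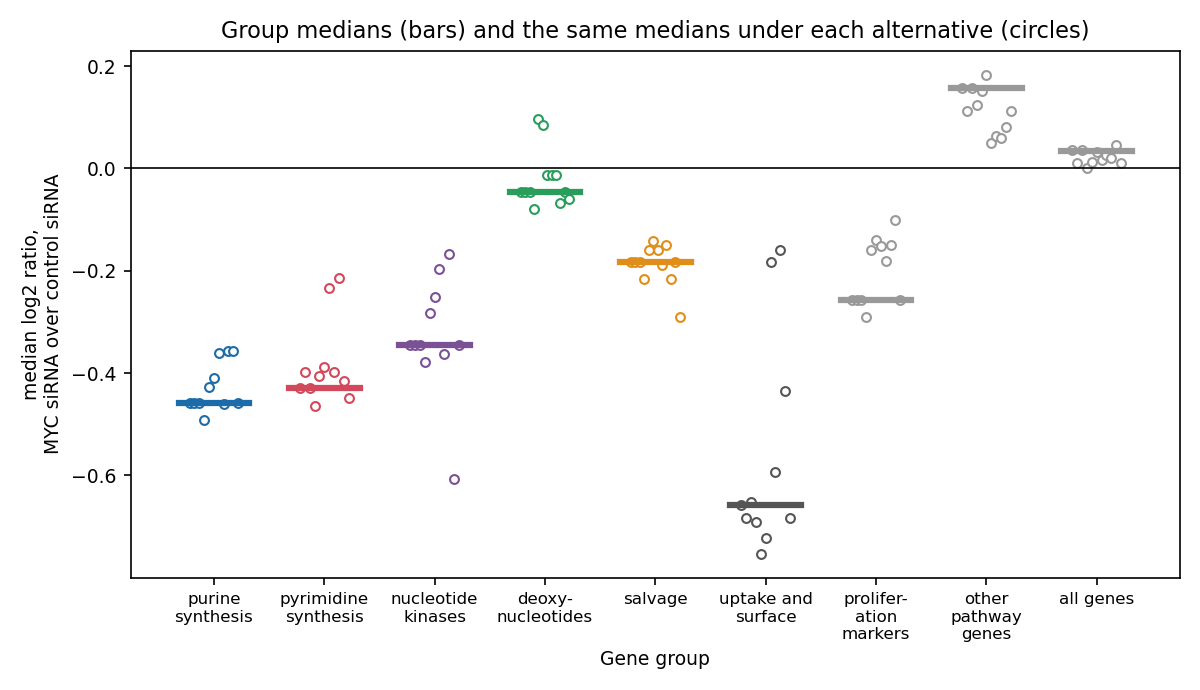
MYC siRNA over control siRNA as median log2 ratio (y axis) for the 6 branches, the proliferation markers, the other pathway genes and all genes (x axis). Bars are the medians as reported and circles the same medians under each alternative way of processing. The purine and pyrimidine circles lie between -0.49 and -0.21, the deoxynucleotide circles between -0.08 and 0.10, and the uptake circles span -0.75 to -0.16.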

How the data were processed

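RNA of 2 HT-29 cultures, 1 per condition, was measured on Affymetrix Human Genome U133 Plus 2.0 arrays. The deposited table holds intensity on a linear scale for 54675 probe sets, computed by the authors as MAS5 signals with affy 1.40.0. Each array was set by them to a mean target of 100, with no floor, logarithm or normalization between arrays. Probe sets naming 1 gene (41097) were used, and symbols were updated to RefSeq (GRCh38.p14). Signals under 50 were set to 50, and log2 of MYC siRNA over control siRNA was taken of the brightest probe set by its mean signal, for genes above 50 in at least 1 array. Calls were a fold of 2, after the study's methods, and 1.5. The precision is limited by 1 array per condition. The members and gene lists were chosen with earlier results of these data known. All members are named, and of the other pathway genes up to 4 in each direction with a signal of at least 100. SLC29A3, under 100 in both arrays, is named outside this rule. Calculations were checked on simulated arrays in which only brighter genes were changed, which leaves changes near a signal of 50 unchecked. They used Python 3.11.15, numpy 2.4.6, pandas 2.3.3, statsmodels 0.14.6 and matplotlib 3.10.9. No protein sequences were used here.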

Additional observations from a re-analysis of the deposited data

How the results depend on the processing

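Alternatives were floors of 25 and 100 or none with 1 added, median centring, quantile normalization, loess with a span of 0.3, means over probe sets, leaving out probe sets that may bind several transcripts (names ending _s_at, _x_at or _a_at), a brighter array of at least 100, a 3-fold threshold, and DCTD counted with the deoxynucleotide genes. The mean over probe sets above 50, and all alternatives for MYC, paralog pairs, markers and other pathway genes, were added after the data were seen. MYC lay between -0.29 and -0.16 on the log2 scale and has no value without its 1 probe set, an _s_at one. The median of the members lay between -0.40 and -0.20, and 24 to 28 of 35 were lower under the scalings. With means over all probe sets, in which those at or under 50 in both arrays count as unchanged, the uptake median was -0.18 (log2 scale) and -0.16 (linear scale), 4 members were 1.5-fold lower, 0 were 1.5-fold higher and 0 were DOWN DEGs on either scale. With means over probe sets above 50, 0 members were 1.5-fold higher, 1 was a DOWN DEG, and SLC29A1 minus SLC29A2 was -0.34. Leaving out the probe sets that may bind several transcripts left 24 members, of which 4 were 1.5-fold lower and 1 was a DOWN DEG, with a nucleotide kinase median of -0.61. The floor of 100 left 1 DOWN DEG, and at 3-fold there were 0. None of the 10 members past 1.5-fold turned direction, and 5 members close to 0 did (CMPK1, DTYMK, DUT, GUK1 and RRM1). The floors, the added 1 and the cut at 100 keep the same probe set and cannot turn a direction. PAICS, IMPDH2 and SLC29A2 have no value without the probe sets that may bind several transcripts. The proliferation median lay between -0.29 and -0.10. Signals near 50 limit DHODH, SLC29A1 and SLC29A2.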
